A study of Mus musculus with 40 samples.

Results

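Keratins are the intermediate filament proteins of epithelial cells, and their genes were followed here across every array of a diet series in mice. The members were the genes named Krt and a number in the deposited table of fold changes, and genes named Krtap or Krtcap were not taken. This gave 51 keratin genes of 29411 genes. Every gene was read from 1 probe, chosen as the probe with the highest average log2 signal across the 38 arrays whose labels did not conflict, so that 51 of 59 keratin probes were used out of 40628 probes on the array.

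The study followed C57BL/6J mice that were weaned at 3–4 weeks of age and placed at random in 5 groups of 30 animals. LFC mice ate a low-fat diet with 10% of calories from fat, and HFC mice ate a high-fat diet with 60% of calories from fat and more sucrose. HF5, HF20 and HF75 mice ate the HFC diet with 5, 20 or 75 µg of KAL-1, a botanical formulation. The tissue is labelled subcutaneous SVCs and the series title calls the cells infiltrating macrophages. There were 11 arrays of LFC and 11 of HFC, from days 1, 6, 10 and 14 and from weeks 0, 3, 6, 9, 12, 15 and 18. HF5 had 6 arrays at weeks 3 to 18, and HF20 and HF75 had 5 arrays each at weeks 3 to 15. Although the series text names biological replicates, every diet and time label had 1 array here, and the number of mice behind an array was not stated. The study's methods count day 14 and week 0 as the same time, and each label was kept as given. Another 2 arrays of week 18 had titles and diet labels that conflicted, and they entered no comparison.

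A keratin filament is built from pairs of a type I and a type II keratin, and each kind of epithelium makes its own pairs. Basal cells of the epidermis make Krt5 with Krt14, the layers above them make Krt1 with Krt10, and simple epithelia such as ducts and the mesothelium make Krt8 with Krt18. Further keratins belong to the inner root sheath and the shaft of the hair, and mouse subcutaneous fat lies directly under hair-bearing skin and surrounds the ducts of the mammary gland.

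Levels are given as log2 intensity after subtraction of the array's 75th percentile. A probe was counted as measured on an array where the scanner software called its spots well above background. In the fits a value not so called was raised to the lowest level called on that array if it lay below that level. Otherwise it was kept as it was. Between 17.2% and 87.2% of probes were well above background on an array. The lowest share was on the LFC week 3 array, whose 75th percentile was an intensity of 7.81 and whose lowest measured level was -0.02, so that any gene measured there had a high level. Only 4 keratins (Krt2, Krt9, Krt14 and Krt23) were measured on it, and the median of its rank correlations with other arrays was 0.44. The LFC day 14 array carried 9104 spots that the software marked as outliers, 21 keratins were lost to such marks, and the same median was 0.46. On the LFC week 18 array the summed levels of the adipocyte, fibroblast and endothelial lists were 0.16, 2.78 and 1.21, against medians over the 38 arrays of 7.63, 8.28 and 6.42, and 11 keratins were measured. At week 9 the arrays of every diet but HF75 carried the unexplained letters WS in their titles, and they shared 1 scan day.

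Markers of the cell type named in the series title were measured, and so were those of other cells. All 9 macrophage genes were measured on the median array, their summed level ran from 2.23 on HFC day 1 to 6.19 on HFC week 6 with a median of 4.49, and Cd14 was the brightest of them on 21 arrays. The adipocyte, fibroblast and endothelial lists had higher median summed levels, of 7.63, 8.28 and 6.42, and their brightest genes were Fabp4, Dcn and Vwf. The T cell and B cell lists had median summed levels of 1.90 and 1.44. The skeletal muscle list had a median of 5.08 and its highest value, 9.41, on LFC week 6. Genes of lists for the epithelia in which keratins are made were measured in part. On the median array these were 14 of 25 cornified epidermis, 10 of 14 simple epithelium and 3 of 8 mesothelium genes. The brightest genes of these lists were most often Sfn, St14 and Cldn15, on 23, 17 and 31 arrays. The summed level of 25 cornified epidermis genes had a median of 3.42 and a highest value of 6.16 on HF5 week 18, that of 14 simple epithelium genes a median of 1.38 and a highest value of 5.20 on LFC week 6, and that of 8 mesothelium genes a median of 1.53 and a highest value of 4.24 on HFC week 6.

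Keratins were measured less often than other genes, since 23 of 51 (45.1%) reached that call on 50% or more of the 38 arrays, against 20157 of 29411 genes (68.5%). All 6 simple epithelial keratins reached that mark. It was also reached by 2 of 3 basal keratins, 2 of 7 suprabasal keratins, 4 of 5 keratins of stressed epidermis and the follicle, 1 of 4 mucosal and corneal keratins, 1 of 9 keratins of the inner root sheath and companion layer, 5 of 14 hair shaft keratins and 2 of 3 others. The number of keratins measured on an array ran from 4 on LFC week 3 to 45 on HF20 week 9, which was also the array with the highest share of probes well above background. Of the 28 type I genes 27 lay on chromosome 11 and Krt18 on chromosome 15, and of the 23 type II genes 22 lay on chromosome 15, while the deposited annotation gave none for Krt2. In tissue samples of this kind, fewer cells of a type and less RNA per cell cannot be told apart.

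The basal keratins Krt5 and Krt14, which form the filaments of dividing keratinocytes, were high on a few arrays and low on the rest. Krt14 was measured on 37 of 38 arrays, and in LFC its level ran from -5.22 at week 9 to 4.74 at week 3 with a median of -1.36. In HFC it ran from -5.56 at week 9 to 3.61 at day 6 with a median of -3.32, and in HF5 from -5.50 at week 9 to 2.75 at week 15 with a median of -1.07. HF20 had levels of -4.88, 0.45, -3.91, -3.90 and -3.32 at weeks 3, 6, 9, 12 and 15, and HF75 had -4.34, -2.57, -3.26, -3.00 and -2.91 at the same weeks. All diets overlapped, and above 1 stood LFC at day 1, day 10, week 3 and week 6, HFC at day 6, and HF5 at weeks 6, 15 and 18. Krt5 stood at 2.87 and 1.82 on LFC days 1 and 10, at 2.75 on LFC week 6, and at 2.32, 3.27 and 2.82 on HF5 weeks 6, 15 and 18. Among HFC arrays the highest Krt5 level was -0.97 at day 14, and among HF75 arrays -3.06 at weeks 6 and 15. These Krt5 highs were on arrays where Krt14 was also high, but HFC day 6 had Krt14 at 3.61 with Krt5 at -2.01. The third basal keratin, Krt15, known from stem cells of the follicle bulge, was measured on 15 arrays and exceeded 1 on LFC day 1 (2.68), LFC week 15 (1.06), HF5 week 6, HF5 week 15 (1.85) and HF5 week 18 (2.19).

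Suprabasal keratins mark keratinocytes that have left the basal layer, and apart from Krt2, which was above 1 on 16 arrays, they were high on few arrays. Krt10, the type I partner of Krt1, was measured on 20 arrays and had levels of 2.44 and 2.14 on LFC days 1 and 10 and of 2.67 and 2.46 on HF5 weeks 15 and 18. No other array had a measured Krt10 level above -0.72, which was that of LFC day 14. Krt1 was measured on 7 arrays and reached -0.38, -0.95, 0.26 and -0.32 on the same 4 arrays where Krt10 was highest, and its other measured levels were -4.58 or lower. Krt77 was measured on these 4 arrays at -2.97, -3.46, -1.91 and -1.25 and on LFC day 14, and Krt78 was measured on 17 arrays and reached -1.40 on HF5 week 18. On the week 6 arrays of LFC, HF5 and HF20, where Krt5 stood at 2.75, 2.32 and 1.12, neither Krt1 nor Krt10 was well above background. The summed level of the cornified epidermis list on LFC day 1, LFC day 10, HF5 week 15 and HF5 week 18 was 4.86, 4.08, 4.83 and 6.16, and on the week 6 arrays of LFC, HF5 and HF20 it was 3.87, 4.12 and 4.45. Of the other members, Krt9 of palm and sole skin was measured on 13 arrays and Krt80 on 10. Krt2, the late suprabasal keratin, did not follow Krt10 (their rank correlation was 0.04 over 38 arrays) and is described with the HF75 comparison.

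Keratins that are made in the follicle and in stressed or wounded epidermis followed the suprabasal pattern in part. Krt16, induced in wounded epidermis, was measured on 37 arrays with a median of -3.63 and reached -0.46 and 0.62 on LFC days 1 and 10 and 1.01 and -0.47 on HF5 weeks 15 and 18. Krt17, a keratin of the follicle and of injured skin, reached 0.55 and 0.50 on the same LFC arrays and 2.15 and 1.21 on the same HF5 arrays, with a median of -2.89 over 36 arrays. On HFC arrays Krt16 did not exceed -1.70 and Krt17 did not exceed -1.05, both at day 6. Krt6a, a partner of Krt16, was measured on 19 arrays from -6.17 to -1.43 (HF5 week 15), and Krt6b on 11 arrays with its highest level, 0.09, on HFC day 6. Krt79 is a keratin of the upper follicle and its sebaceous duct. Its levels over 32 arrays ran from -5.48 to 0.39 with the highest on HFC day 1 (0.39), HF5 week 15 (0.37), HF5 week 18 (0.36) and LFC week 9 (0.33).

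**Figure D1:**
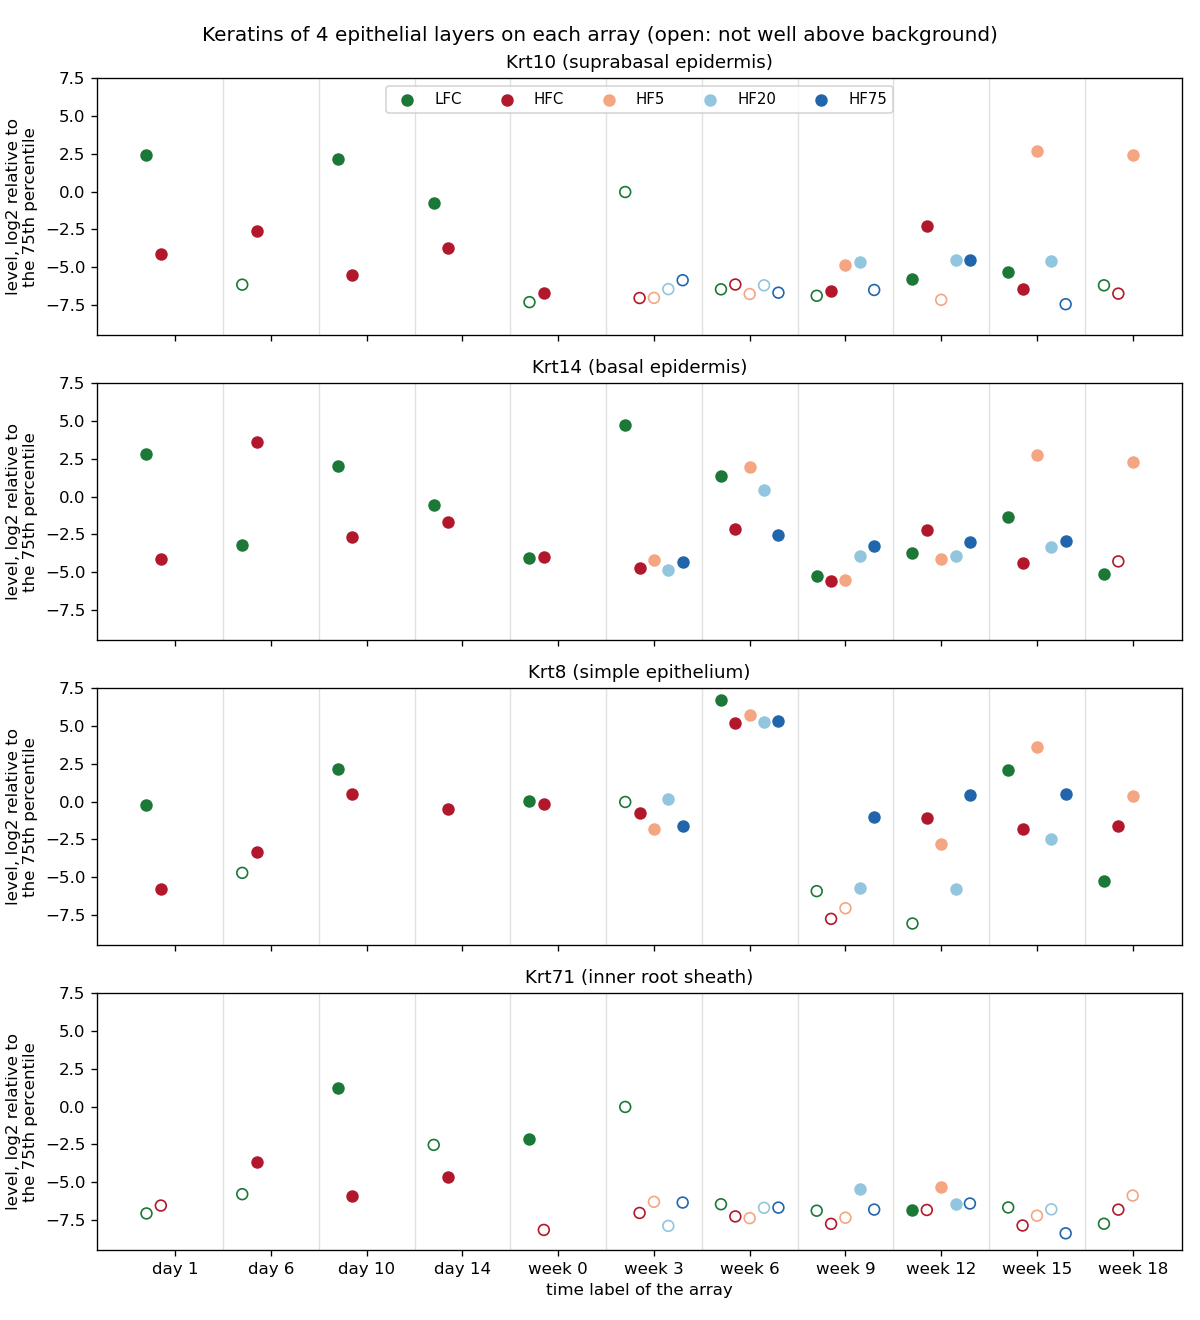
Level of Krt10, Krt14, Krt8 and Krt71 (log2 minus the array's 75th percentile, vertical axis) on each array by time label (horizontal axis) and diet (colour), with open circles for values not well above background. Krt10 reaches 2.44 on LFC day 1 and 2.67 on HF5 week 15, Krt8 is at 5.18 or more on all 5 arrays of week 6, and Krt71 exceeds 0 among its measured values on LFC day 10 alone (1.26).

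Simple epithelial keratins had a time pattern of their own. At week 6 the level of Krt8 was 6.73 in LFC, 5.18 in HFC, 5.71 in HF5, 5.25 in HF20 and 5.34 in HF75. Krt18, its partner, stood at 6.56, 4.48, 6.08, 5.28 and 5.76 on the same arrays, and its spots were saturated on the HF20 array. Krt19, a keratin of ducts and other simple epithelia, stood at 4.37, 3.03, 3.36, 3.17 and 2.22 there. For all 3 genes, the week 6 array was the highest measured array of every diet, and the diets overlapped. Outside week 6 the highest Krt8 levels were 3.62 on HF5 week 15, 2.14 on LFC day 10 and 2.11 on LFC week 15, and those of Krt18 were 4.35 on LFC week 15 and 3.94 on HF5 week 15. The lowest measured Krt18 levels were -5.98 on LFC week 12, -4.97 on HFC day 1, -4.46 on HFC week 9 and -4.28 on LFC week 9. Krt20, of intestine and urothelium, had levels over 35 arrays from -4.66 to 1.90 with a median of -2.29 and its highest on LFC week 6, and Krt7 of ducts and mesothelium reached -0.35 on HF5 week 6. Krt23 kept apart from this set, with its highest levels on the dim LFC week 3 array and on HF5 week 18 (1.20), and no week 6 level above -1.54. On the week 6 arrays the summed level of the mesothelium list was 2.35, 4.24, 2.97, 3.25 and 3.39 in LFC, HFC, HF5, HF20 and HF75, that of the simple epithelium list was 5.20, 3.21, 5.13, 5.12 and 4.40, and that of the skeletal muscle list was 9.41 in LFC, 3.26 in HFC, 3.40 in HF5 and 4.05 in HF20, and lowest in HF75.

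Keratins of mucosa, cornea and the inner root sheath were measured on 1 to 29 arrays. Krt13, a keratin of the oral and esophageal lining, was measured on 29 arrays from -6.14 to 1.39, with the highest level on HFC day 6, where Krt14 was also at its HFC maximum of 3.61. Krt4, its usual partner, was measured on 5 arrays, and the corneal Krt12 and the palatal Krt76 on 2 and 1. Among keratins of the inner root sheath, which molds the growing hair, Krt71 stood at 1.26, Krt25 at -0.59, Krt27 at -0.94, Krt28 at -0.39 and Krt73 at -2.55 on LFC day 10, and 7 of the 9 genes of the class were measured there. The hair shaft keratin Krt35 stood at -0.19 on the same array, its highest level. LFC week 0 had Krt71 at -2.12 and Krt28 at -3.26, HFC day 6 had Krt71 at -3.64 and Krt27 at -1.85, and on LFC day 14, the array with the outlier marks, Krt27 stood at 0.98, Krt26 at 1.29, Krt25 at -0.50, Krt74 at -0.60, Krt72 at -1.01 and Krt73 at -1.96, each the highest measured level of its gene. HF5 week 3 had Krt25 at -1.43, while Krt71, Krt27 and Krt28 were not well above background there. Apart from Krt28, the other 8 genes of this class were measured on 4 to 17 arrays each.

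Hair shaft keratins, the cysteine-rich keratins of the hair fibre, were mostly dim. Krt33b was measured on 35 arrays within a narrow range, from -5.59 to -2.60, and Krt36 on 30 arrays from -5.91 to -0.82 (LFC day 6). Krt83 was measured on 27 arrays, Krt86 on 25 and Krt84 on 19, and the other 9 of the 14 genes on 2 to 15 arrays. The levels of Krt83 ran from -5.68 to -0.81 and those of Krt86 from -5.61 to -1.32, with the highest on HF75 week 3 and HF75 week 12. Krt42, a type I gene grouped with the others, was the most even keratin described here, with levels from -3.23 to -1.13 over 37 arrays and a median of -2.45. Krt222, which lacks a full rod, ran from -5.35 to -1.87 over 33 arrays, and Krt24 was measured on 5.

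Several known pairs moved closely together across the arrays. Rank correlations over 37 arrays were 0.98 for Krt8 with Krt18, 0.89 for Krt5 with Krt14 and 0.88 for Krt8 with Krt19, and 0.34 for Krt6a with Krt16, or 0.79 over the 19 arrays where both were measured. Krt16 and Krt79 had a correlation of 0.80 over 37 arrays, and Krt16 and Krt17 of 0.68. Between classes the values spread widely, from 0.85 for Krt13 with Krt14 over 38 arrays and 0.82 for Krt13 with Krt17, 0.78 for Krt7 with Krt14, 0.70 for Krt2 with Krt86 and 0.68 for Krt5 with Krt8 to -0.23 for Krt16 with Krt18 and -0.64 for Krt18 with Krt36. The arrays share slides, scan days and differences in background, so these values are descriptions. The 10 other genes most like the mean of Krt5 and Krt14, among 20089 candidates, were Tmprss4 (0.85), 1190003J15Rik (0.85), Dsp (0.85), Serpinb5 (0.84), Ly6g6e (0.84), Ckmt1 (0.82), S100a14 (0.81), Il31ra (0.80), Alox12e (0.79) and Sectm1b (0.79), over 38 arrays or 37 for 1190003J15Rik. Dsp encodes desmoplakin, which anchors keratin filaments at desmosomes.

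No keratin passed the test between HFC and LFC, but most had lower mean levels on the high-fat diet. Of 25 keratins tested 21 had a negative log2 difference, with 22 of 25 after a normexp background correction, and the median was -0.58 against -0.02 for all genes. Without the pair of the dim week 3 array 20 of 29 were negative, with a median of -0.20 against 0.12, and the median was -0.92 without week 12 and -0.88 without week 18. Krt17 had a difference of -1.37 (SE 0.53), with HFC lower in 6 of 10 pairs of the same time label, Krt5 of -2.13 (SE 0.94) with 5 of 10 pairs lower, and Krt16 of -1.16 (SE 0.48) with 10 of 11 pairs lower. In LFC the level of Krt16 ran from -4.25 to 0.62 with a median of -3.43, and in HFC from -4.43 to -1.70 with a median of -3.63. The groups overlapped, and among pairs measured on both sides the largest gaps were on days 1 and 10, when Krt16 stood at -0.46 and 0.62 in LFC and at -2.98 and -3.63 in HFC. At week 3 the LFC value of Krt16, and also of Krt5 and Krt17, was the floor of the dim array. By class the median difference was -1.97 for the 2 basal keratins tested, -1.14 for 4 keratins of stressed epidermis and the follicle, -0.86 for 3 suprabasal, -0.96 for 1 mucosal, -1.15 for 2 inner root sheath, -0.37 for 5 hair shaft, -0.33 for 2 other and -0.30 for 6 simple epithelial keratins. The cornified epidermis list had a median of -0.76 over 16 genes tested, desmosome genes of -0.59 over 9 and simple epithelium genes of -0.54 over 10, with 0 genes past the threshold in any list.

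The test was limma on all genes with the time label as a block, and a call was a Benjamini-Hochberg adjusted p under 0.05. Its p-values measure the spread between these arrays. In this comparison limma called 0 of 25 keratins and 0 of 20827 genes (0.00%) in either direction, with an adjusted p of 0.949 for Krt5, Krt16 and Krt17. At an unadjusted p under 0.05 there were 3 keratins, the 3 named, and 603 genes (2.90%, with 1.58% lower and 1.32% higher), and a t-test gave 298 genes unadjusted and 0 adjusted. The number of such keratins ran from 0 without day 1 or day 10 to 8 without day 6. The study's methods name a t-test on 3 control and 3 treated values, and here the arrays of each side were pooled over time for it. Without the pairs of week 3 and day 14 the differences were -1.94 for Krt5, -1.22 for Krt17 and -0.86 for Krt16, and in pairs that shared a slide -0.11, -0.60 and -0.78. The fibroblast, endothelial and adipocyte lists had median differences of 1.27, 1.14 and 0.99 between HFC and LFC, and their part in the keratin values was not tested.

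Over the LFC and HFC arrays most keratins tested had lower mean levels at weeks 3 to 18 than at days 1 to 14 and week 0, but none passed the test. Higher means were found for Krt23 (0.75), Krt2 (0.73), Krt18 (0.30), Krt20 (0.14), Krt86 (0.14), Krt19 (0.03) and Krt33b (0.01). Krt27, of the inner root sheath, was measured on 7 of 10 earlier arrays, from -5.92 to 0.98, and on 0 of 12 later arrays. Since no later value of Krt27 was well above background, no size is given for its difference. The other keratins at an unadjusted p under 0.05 were Krt28, Krt6b and Krt71. Krt28 had a log2 difference of -1.76 (SE 0.73), and from -2.43 to -0.99 over the alternatives. The fitted differences of Krt6b and Krt71 ran from -4.04 to -0.97 and from -6.41 to -0.68 over the alternatives. Most of their later values were not well above background, so that no single size is given for them. Krt71 was measured on 5 earlier arrays and 1 later array, Krt28 on 9 and 6, and Krt6b on 6 and 1. Their levels in both groups were thus in part not well above background. The later arrays overlapped the earlier ones for these genes, since some earlier arrays were also low. In all 28 of 35 keratins had a negative difference, with 31 after the normexp correction and 23 after quantile normalization, and the median was -0.79 against 0.01 for all genes. The median was -1.28 without week 3, with 33 of 35 negative, and -1.39 without week 0, with 34 of 40 negative. The 5 inner root sheath keratins tested had a median of -1.82 and the 6 simple epithelial keratins one of 0.08.

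In limma with diet as a block 0 of 35 keratins and 1 of 21597 genes (0.00463%) were called, against 4 keratins and 961 genes (4.45%, with 1.12% lower and 3.33% higher) at an unadjusted p under 0.05, and the t-test gave 963 unadjusted and 0 adjusted. The 4 keratins became 14 without week 3, 12 without week 0, 6 without day 1, 2 without day 10, week 15 or week 18 and 1 without day 14 or week 6. The adjusted p was 0.984 for Krt27 and 1.00 for the other 3. The called gene, named after its value was seen, was the immunoglobulin heavy chain gene Igh (3.69, SE 0.58, adjusted p 0.0378). Without the arrays of day 6, day 10, day 14, week 6, week 9, week 15 or week 18 the count was 0, without week 12 it was 2, and without week 3 the 1 gene called was lower. It was also 0 after the normexp correction, after quantile normalization, without the filter, and with slide or scan day as a random block. Of the lists, 0 genes were called, and the lowest median was that of the 8 adipocyte genes, below -1.39 for 3 milk, -1.16 for 5 B cell, -0.95 for 9 skeletal muscle, -0.61 for 19 cornified epidermis and -0.62 for 8 hair follicle genes, while mesothelium (1.38 over 3 genes) and macrophage genes (0.65 over 9) were the highest. Age, harvest and slide went with time and cannot be told apart from it. Whether the HFC difference itself changed between the periods was tested over the 11 pairs, and limma called 0 of 25 keratins and 0 of 20827 genes (0.00%), with 0 keratins and 990 genes (4.75%, with 3.47% lower and 1.28% higher) at an unadjusted p under 0.05. There 14 of 25 keratins were negative with a median of -0.44 against -0.51 for all genes, but after the normexp correction 25 of 25 were positive with a median of 1.94 against 0.48. That correction gave 14 keratins and 7412 genes at an unadjusted p under 0.05, with 0 called. Leaving out 1 pair also turned the median, to 0.72 without week 3 (21 of 29 positive), 0.45 without day 6 (18 of 27) and 0.01 without week 0 (14 of 27), it was -0.06 without week 6 and -0.80 without week 18, and with values not well above background left out it was 0.46 (15 of 25).

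Krt8 and Krt18, the keratin pair of simple epithelia, and the basal Krt14 were lower on the 4 week 9 arrays with WS in their titles than on the arrays of the same diets at weeks 6 and 15. At week 9 on LFC, HFC and HF5 the Krt8 probe used was not well above background, though a second Krt8 probe was so on LFC, and on HF20 the probe used was at -5.73. At week 15 it stood at 2.11, -1.79, 3.62 and -2.48 in LFC, HFC, HF5 and HF20, and at week 6 at 5.18 or more. Krt18 stood at -4.28, -4.46, -4.05 and -2.86 on the WS arrays, and its lowest level at weeks 6 and 15 was -0.54. For both genes the WS arrays lay below all 8 others, but week 12, which was not compared, also had low arrays without WS, with Krt18 at -5.98 in LFC and -4.27 in HF20 and Krt8 at -5.80 in HF20. The HF75 array of week 9, which had no WS in its title, had Krt18 at 0.72, and Krt8 was measured on it. Krt14 stood at -5.22, -5.56, -5.50 and -3.91 on the WS arrays and from -4.39 to 2.75 on the others, so that 1 WS array overlapped them.

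The log2 difference was -9.66 (SE 1.74, adjusted p 0.0412) for Krt8, most of whose WS values were not well above background. It was -7.69 (SE 1.28, adjusted p 0.0412) for Krt18, whose spots were saturated on 1 of the 8 other arrays, and -4.47 (SE 1.06, adjusted p 0.0450) for Krt14. Limma with diet as a block called 3 of 26 keratins, all lower, against 1658 of 22408 genes (7.40%), of which 1064 were higher (4.75%) and 594 lower (2.65%). The WS arrays all came from week 9 and the others from weeks 6 and 15, each week with its own scan day. The fit took arrays of the same week as independent, so its p-values do not cover the spread between weeks. At an unadjusted p under 0.05 there were 15 keratins, 12 lower and 3 higher, and 30.3% of genes (12.9% lower and 17.4% higher). The 3 higher were Krt79 (2.79, adjusted p 0.108), Krt36 (2.60, adjusted p 0.0972) and Krt222 (1.84, adjusted p 0.0556), and Krt20 (-2.81, adjusted p 0.0503), Krt5 (-4.27, adjusted p 0.0551), Krt19 (-4.51, adjusted p 0.0698), Krt15 (-4.49, adjusted p 0.124) and Krt2 (-3.67, adjusted p 0.139) were among the lower. In all 18 of 26 keratins were negative with a median of -0.91 against 0.04 for all genes, and after the normexp correction 13 of 26 were negative with a median of -0.11 against 0.19. Without the filter 25 of 51 were negative, and the median was -2.13 without HF20 and -0.55 without HF5. Without the LFC, HF5 or HFC arrays limma called 0 keratins and 0 genes, and without the HF20 arrays it called 10 keratins and 4127 genes. After the normexp correction it called Krt18 alone among keratins, with 401 genes in all, and without the filter 0 keratins and 4 genes. The t-test called Krt8 and Krt18.

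**Figure D2:**
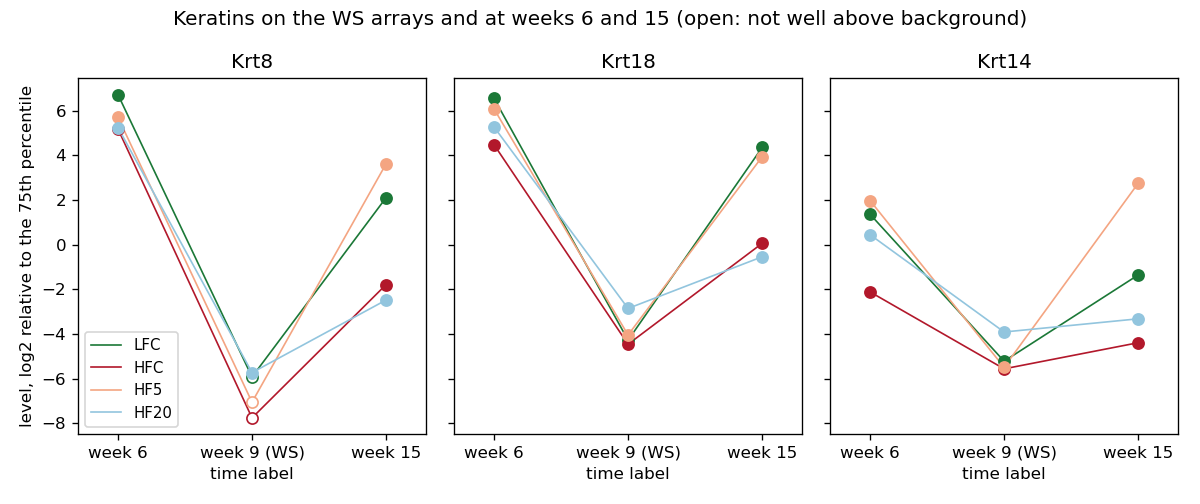
Level of Krt8, Krt18 and Krt14 (log2 minus the array's 75th percentile, vertical axis) at week 6, on the WS arrays of week 9 and at week 15 (horizontal axis), with 1 line per diet and open circles for values not well above background. Krt18 is at -2.86 or lower on the WS arrays and at -0.54 or higher on the other arrays.

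Some other genes of epithelium passed the test on the WS arrays, where 7.40% of all genes did and 2.65% were lower. Of 14 simple epithelium genes 3 fell, and they were the adhesion genes Epcam (-5.57) and Cdh1 (-4.10) and the membrane protease gene St14 (-4.20), while none rose and the list's median was -3.78. Its summed level was -1.75, -1.40, -1.21 and -0.07 at week 9 in LFC, HFC, HF5 and HF20, against 5.20, 3.21, 5.13 and 5.12 at week 6 and 3.24, 0.66, 2.81 and -0.72 at week 15. Of 10 desmosome genes Perp (-3.20) and Pkp3 (-2.92) fell and none rose, and of 10 basement membrane genes Itgb4 (-1.99) fell. Among 18 cornified epidermis genes Cdsn (5.76) rose and Serpinb5 (-4.36) fell. In the lists for other cells, 5 of 8 adipocyte genes were higher, among them Lep (6.37), Retn (6.30), Plin1 (5.52) and Adipoq (3.84), and Dct (4.60) was higher among 3 melanocyte genes. Cd14 (-2.98) of 9 macrophage genes, Pdgfra (-1.30) of 8 fibroblast genes and Vwf (-2.06) of 8 endothelial genes fell. The mesothelium list had a median of -3.11 over 8 genes with 0 called, and hair follicle, sebaceous gland, milk, skeletal muscle, T cell and B cell genes had 0 called. For the adipocyte list the summed level was 8.52, 8.17, 8.31 and 8.36 on the WS arrays, 5.99, 6.60, 7.04 and 5.73 at week 6 and 7.13, 6.69, 6.28 and 8.63 at week 15. Its part in the keratin result was not tested, and the WS titles, the time label and the scan day cannot be told apart.

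Krt2, a keratin of the upper suprabasal layers, and Krt86, a hair shaft keratin, were higher in HF75 than in HFC in 5 of 5 pairs of the same time label. Krt2 had levels of 6.55, 3.48, 3.02, 6.98 and 5.30 at weeks 3, 6, 9, 12 and 15 in HF75, and of 0.65, -5.13, -5.54, 3.93 and -0.24 in HFC. The diets overlapped at 1 point, where HFC week 12 exceeded HF75 weeks 6 and 9. Krt86 had levels of -1.38, -4.41, -2.98, -1.32 and -2.99 in HF75 and of -4.93, -5.61, -4.14 and -5.61 at weeks 3, 6, 12 and 15 in HFC, and at week 9 HFC was not well above background. Here too the diets overlapped, since HF75 week 6 lay below HFC week 12. The differences were 6.33 (SE 0.82, adjusted p 0.0235), or 80.6-fold, for Krt2 and 2.96 (SE 0.48, adjusted p 0.0463), or 7.79-fold, for Krt86. The Krt2 value is that of 1 probe. Among these arrays a second Krt2 probe was well above background on HF75 week 15 alone, at -5.20. Krt2 was also at 7.96 on the dim LFC week 3 array, at 4.17 on LFC week 15, at 5.96 on HF5 week 12 and at 3.59 on HFC week 18.

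**Figure D3:**
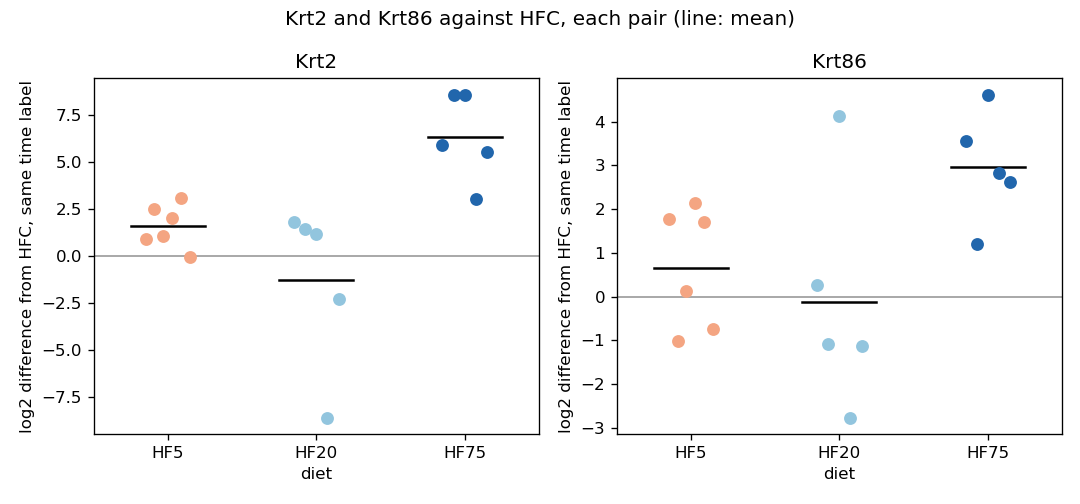
Difference in level from the HFC array of the same time label (log2, vertical axis) for Krt2 and Krt86 in HF5, HF20 and HF75 (horizontal axis), with 1 point per pair and the mean as a line. All 5 HF75 points are above 0 for both genes, the lowest being 3.05 for Krt2 and 1.19 for Krt86, and the HF20 points for Krt2 include -8.61.

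Limma called these 2 of 23 keratins tested, both higher, against 226 of 20650 genes (1.09%), of which 189 were higher (0.915%) and 37 lower (0.179%). Unadjusted p-values under 0.05 were found for 5 keratins and 2969 genes (14.4%, with 6.15% lower and 8.22% higher), and the other 3 keratins were Krt18 (1.88, SE 0.74, higher in 4 of 5 pairs), Krt79 (-1.53, SE 0.46, lower in 5 of 5) and Krt36 (-1.28, SE 0.40, lower in 5 of 5), with adjusted p of 0.314, 0.213 and 0.234. Krt83, which shares bases with the Krt86 probe, had a difference of 2.45 (SE 1.18, adjusted p 0.421). The t-test called 1 gene and 0 keratins. Over all keratins tested 15 of 23 were positive with a median of 0.37 against 0.02 for all genes, and after the normexp correction 5 of 23 were positive with a median of -0.36 against -0.17. The median was 0.17 without week 3 and 0.10 without week 9. Krt86 was not called after that correction (0.51, adjusted p 0.762) or without any 1 pair (adjusted p from 0.0593 to 0.205). Krt2 was called after the correction (5.11, adjusted p 0.00213) and without the week 12 pair (0.0198), but not without week 3 (0.109), week 6 (0.0829), week 9 (0.0637) or week 15 (0.0781). The gene count was 0 without week 3, 7 without week 6, 146 without week 9, 71 without week 12 and 27 without week 15. Without the block of time labels, and with all 38 arrays in 1 fit, 0 genes and 0 keratins were called. In the 2 pairs scanned on the same day, weeks 12 and 15, the differences were 4.30 for Krt2 and 2.72 for Krt86, each higher in both pairs and neither called (adjusted p 0.582).

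Among other genes of skin and gland in HF75, 1 passed the test, which 226 of all 20650 genes did (1.09%). The count over all genes was 0 without the week 3 pair, without the block of time labels and with all 38 arrays in 1 fit. Of 15 cornified epidermis, 9 basal epidermis, 9 desmosome and 11 simple epithelium genes 0 were called, with medians of -0.05, -0.15, 0.29 and 1.21. Of 8 hair follicle genes the signal gene Shh rose (1.98, SE 0.26), and of 8 fibroblast genes Dpt fell (-2.43, SE 0.38). The melanocyte, sebaceous gland, milk, mesothelium, macrophage, adipocyte, endothelial, skeletal muscle, T cell and B cell lists had 0 called, with a median of 1.71 over 3 milk genes. The basal Krt5 and Krt14 had differences of 0.06 and 0.58, and the suprabasal Krt10 of -0.52.

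Neither lower dose gave a call for a keratin. In HF5 the differences from HFC at the same time labels were positive for 22 of 25 keratins, with a median of 0.83 against -0.01, and for 12 of 25 after the normexp correction, with a median of -0.04 against -0.22. Without the week 15 pair the median was 0.34 with 15 of 20 positive, and it was 1.38 without week 3 and higher still without week 12, with 17 of 23 positive. Krt2 had a difference of 1.59 (SE 0.41, higher in 5 of 6 pairs, adjusted p 0.903) and Krt84 of 0.71 (SE 0.25, higher in 5 of 6 pairs, adjusted p 0.923). Over the alternatives the Krt84 difference ran from -0.82 to 0.82 and changed sign in 1 of them. Krt10, Krt5 and Krt14 were high on HF5 weeks 15 and 18, and Krt5 and Krt14 also on HF5 week 6. Over the 6 pairs their differences were 2.42 (SE 1.88), 2.75 (SE 1.59) and 2.75 (SE 1.25), with adjusted p of 0.956 each. Limma called 0 of 25 keratins and 0 of 20843 genes (0.00%), with 2 keratins and 1068 genes (5.12%, with 3.04% lower and 2.09% higher) at an unadjusted p under 0.05, and the t-test gave 352 genes unadjusted and 0 adjusted. After the normexp correction the unadjusted counts were 7 keratins and 5305 genes. All of the fixed lists had 0 called in HF5, and the cornified epidermis list had a median of 0.41 and the desmosome list of 0.55.

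In HF20 the median over 30 keratins was 0.25 against 0.08 for all genes, with 20 positive, and after the normexp correction 2 were positive with a median of -0.91 against -0.33. The median was 0.03 without week 9, with 17 of 33 positive, 0.74 without week 12, 0.55 without week 3 and 0.43 without week 15. Krt84, a hair shaft keratin, had a difference of 1.65 (SE 0.41, higher in 4 of 5 pairs, adjusted p 0.416). Its difference ran from -0.61 to 2.29 over the alternatives and changed sign in 1 of them. Krt2 had a difference of -1.29 (SE 1.58, adjusted p 0.674), and by pair of 1.83, 1.46, 1.17, -8.61 and -2.28 at weeks 3, 6, 9, 12 and 15. Limma called 0 of 30 keratins and 0 of 22091 genes (0.00%), with 1 keratin and 2518 genes (11.4%, with 4.74% lower and 6.66% higher) at an unadjusted p under 0.05, and the t-test gave 1179 genes unadjusted and 0 adjusted. The unadjusted counts became 14 keratins and 6658 genes after the normexp correction. They were 7 and 4324 without week 3, and 1 and 728 without week 15. All fixed lists had 0 called, with medians of 1.38 for adipocyte, -1.80 for T cell and 0.37 for cornified epidermis genes. The comparisons of HF5, HF20 and HF75 share the HFC arrays, and differences between doses were not tested.

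The Krt2 probe stood out among the probes by its bases. It holds 10 GGA triplets, as no other probe of the 40628 did, and 66.7% of its bases are A or G, against a median of 51.7% over all probes. The sequence of its 60 bases is shown because the largest keratin difference in HF75 rests on it, with the GGA triplets in capitals.
Krt2 probe: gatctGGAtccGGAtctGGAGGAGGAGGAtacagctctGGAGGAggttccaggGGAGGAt
A second Krt2 probe was well above background on 4 arrays (LFC day 14, HF20 week 9, LFC week 15 and HF75 week 15), where the probe used was measured on 36, and the rank correlation of the 2 over 38 arrays was 0.40. At weeks 3, 6, 9 and 12 of HF75 the second probe was not well above background, and at week 15 it stood at -5.20. The second probes of Krt5 (0.97, with 47 bases shared), Krt8 (0.99) and Krt36 (0.95) followed the probe used, and those of Krt32 (0.70), Krt13 (0.47), Krt28 (0.46) and Krt33b (0.37) did so less.

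Probes with many GGA triplets were more like the Krt2 probe, though not evenly by their number. Among 22350 probes compared with it, the median rank correlation was 0.01 for the 7910 with no GGA, 0.15 for 1495 with 3, 0.41 for 85 with 5, 0.35 for 11 with 6 and 0.86 for 5 with 7, while for Krt14 the 85 probes with 5 had a median of 0.15. The 3 genes most like Krt2, singled out after their values were seen, were the predicted genes Gm2955 (0.99), Gm4435 (0.99) and Gm2557 (0.98). The longest run that the Krt2 probe shares with the Gm4435 probe is 16 bases, shown with its GGA triplets in capitals.
Gm4435 and Krt2 shared run: atctGGAGGAGGAGGA
The letters GGAGGA, or the same repeat shifted by 1 or 2 bases, as printed on the probe strand, occur in the probes of 8 keratins, Krt2, Krt15, Krt25, Krt33a, Krt36, Krt72, Krt83 and Krt86, of which Krt36 had a difference of -1.28 in HF75. In HF75 they occur in 100 of the 189 genes called higher (52.9%), in 4 of the 37 called lower (10.8%) and in 1087 of the 20650 tested (5.26%). On the WS arrays they occur in 45 of 1064 genes called higher (4.23%) and 21 of 594 called lower (3.54%). The 127 probes with 5 or more GGA had a median deviation from their own mean of 0.66, 0.09, 0.33, 0.63 and 0.17 on the HF75 arrays of weeks 3, 6, 9, 12 and 15, and of 0.05, -0.49, -0.64, 0.22 and -0.08 on the HFC arrays. The part of these bases in the levels of Krt2 and Krt86 was not tested.

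**Figure D4:**
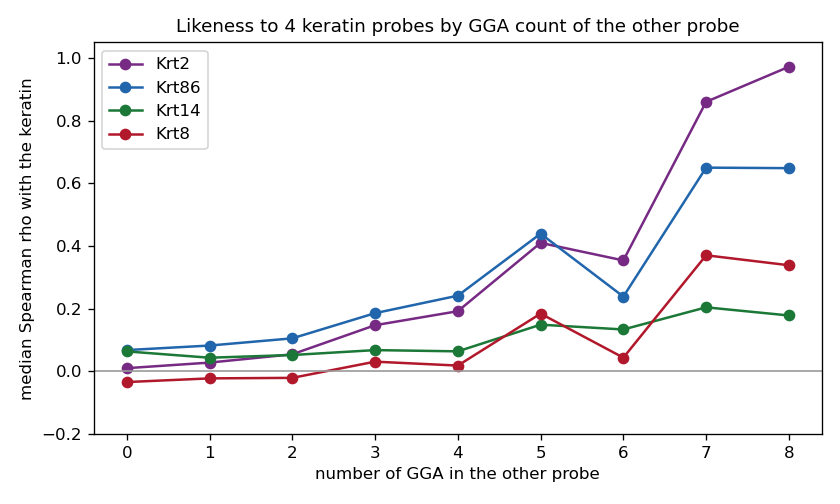
Median rank correlation (Spearman rho, vertical axis) of other probes with the probes of Krt2, Krt86, Krt14 and Krt8, by the number of GGA triplets in the other probe (horizontal axis), with 1 line per keratin. For Krt2 the median is 0.01 at 0 triplets, 0.41 at 5, 0.35 at 6 and 0.86 at 7, and for Krt14 it is 0.15 at 5.

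The levels of Krt83 and Krt86, both hair shaft keratins, had a rank correlation of 0.81 over 37 arrays, and of 0.69 over the 24 where both were measured. Their probes share a run of 20 bases, which is shown in capitals.
Krt83 probe: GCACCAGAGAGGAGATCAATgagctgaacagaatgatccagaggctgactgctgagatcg
Krt86 probe: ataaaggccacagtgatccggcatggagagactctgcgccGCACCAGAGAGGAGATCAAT
The shared run lies at the start of the Krt83 probe and at the end of the Krt86 probe. The accessions given for the Krt83 probe name Krt86 and Krt87, and those of the Krt6b probe name Krt6a and Krt6b. For 44 of the 51 probes, the accessions name the gene itself.

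Keratin promoters were rich in the TATA letters. RefSeq tables of build GRCm38.p6 held 50 of the 51 keratin symbols and a promoter for 35 of them. In the 60 bases before the start, TATAAA was searched on both strands and occurred in 15 of 35 keratin promoters (42.9%), each time on the strand of the gene, and in 1137 of all 27025 promoters (4.21%). By class it occurred in 6 of 8 inner root sheath and companion layer, 5 of 9 hair shaft, 2 of 3 mucosal and corneal, 1 of 5 simple, 1 of 5 suprabasal, 0 of 2 basal, 0 of 1 stress and follicle and 0 of 2 other keratins. In the stretches of Krt5, Krt14, Krt8 and Krt18 TATAAA did not occur. Those of Krt10, Krt71 and Krt25 are shown as examples that hold it, with TATAAA in capitals. They lie on the minus strand at chr11:99389365-99389424, chr15:101743098-101743157 and chr11:99322952-99323011.
Krt10: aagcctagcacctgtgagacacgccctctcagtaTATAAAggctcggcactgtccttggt
Krt71: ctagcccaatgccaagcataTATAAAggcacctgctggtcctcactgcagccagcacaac
Krt25: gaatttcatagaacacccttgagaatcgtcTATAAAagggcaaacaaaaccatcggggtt
The letters start 26, 40 and 30 bases before the gene's start. A match of letters is a description and not a site.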

How the data were processed

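Total RNA from subcutaneous SVCs was labelled with Cy3 and hybridized to 1-colour Agilent arrays, 40 in all. The deposited intensities were made with Agilent Feature Extraction 10.5.1.1 per the file headers, while the submitters' notes name 9.1, and the processed signal was background-subtracted and detrended within the array but not normalized between arrays. The other deposited values used were the annotation that the authors put beside their fold changes (symbols, probe sequences, accessions and chromosomes), and the authors' 40 fold change columns, log2 values with LFC at each time as reference, were not used.

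From each log2 intensity the array's 75th percentile was subtracted. Spots marked as outliers by the software were dropped, and a probe counted as well above background where at least 50% of its spots were so called. Other values that lay below the lowest level well above background on that array were raised to it, and the rest were kept. Between 17.2% and 87.2% of probes were well above background on an array, which sets the depth. A gene was tested when this call was made on 50% or more of the arrays of 1 side of the comparison. Limma 3.58.1 in R 4.3.3 was run on all genes with Benjamini-Hochberg adjustment and a threshold of 0.05, with the time label as a fixed block, or diet for the comparisons of later with earlier arrays and of the WS arrays. The study's methods compare each array with the control of the same time point, which gave the pairs, and the correlation of arrays within a pair after each gene's diet mean was removed had a median of 0.33 for HFC with LFC, 0.43 for HF5, 0.38 for HF20 and 0.14 for HF75 with HFC. Python 3.11.15, NumPy 2.4.6, pandas 2.3.3, SciPy 1.17.1 and matplotlib 3.10.9 made the tables and figures.

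Samples, comparisons, alternatives and the rule for naming genes were fixed before the data were examined, but the members and the marker lists were chosen with earlier results of these data known. The genes named by that rule were keratins with that call on 50% or more of the 38 arrays or past the test, called genes of the lists (at most 4 per list and comparison), and the 10 genes most like the mean of Krt5 and Krt14 by Spearman correlation. Other keratins, among them Krt1, Krt15, Krt25, Krt27 and Krt71, are described outside that rule. A summed level is the log2 of the summed intensities of a list on the same scale. The results were repeated after quantile normalization, after normexp correction of the background (offset 50), without the filter, with values not well above background left out, with every probe on its own, with all 38 arrays in 1 fit, without the block, by a t-test (named in the study's methods for 3 control and 3 treated values, here on all arrays of each side), in pairs on the same slide, and with arrays left out. Not every alternative was run for every comparison. Later against earlier arrays and the WS arrays had no fit of all 38 arrays and no pairs on the same slide. The change in the HFC difference had neither of these, no fit without the block and no t-test. The 2 arrays with conflicting labels were left out of all comparisons.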

Additional observations from a re-analysis of the deposited data

Results flagged for a closer look

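In groups of 4 to 10 arrays, the highest and the lowest value were compared with the nearest other value, and a gap above Dixon's critical share of the range (0.710 for 5 arrays) marked a value. Of 64 groups checked, 3 had such a value, and chance marks about 1 in 20. All 3 were in HF20. Krt5 was highest at week 6, at 1.12 against -3.25 for the next array, a share of 0.759. The summed level of the basal keratins was highest on the same array, at 2.21 against -2.26 (0.759). The summed level of the suprabasal keratins was highest at week 3, at 2.48 against -1.88 (0.829), and Krt2 was the only 1 of the 7 genes well above background there.

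Of the 2 week 18 arrays with conflicting labels, 1 had keratin levels above the highest LFC array among the 46 values compared. Krt13 stood at 0.64, Krt83 at 0.61, Krt84 at -0.84 and Krt86 at -0.81 on it. That array had 21710 spots marked as outliers, by which 31 keratins were dropped. No group of arrays moved wholly against another in the 25 contrasts checked for it.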

How the results depend on the processing

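In HF75 against HFC 226 genes and 2 keratins were called. The gene count was 0 with all 38 arrays in 1 fit, 0 without the block of time labels, 1 by the t-test and 0 in pairs of the same scan day, and it ran from 0 without the week 3 pair to 146 without the week 9 pair. The keratin count was 1 after the normexp correction, 1 with values not well above background left out, 0 with all 38 arrays in 1 fit, 0 without the block, 0 by the t-test and 0 in pairs of the same scan day. Leaving out a pair gave 0 to 1 keratins, with 1 (Krt2) without week 12. Over the alternatives the difference of Krt2 ran from 4.30 to 7.15 (adjusted p 0.00213 to 0.692) and that of Krt86 from 0.51 to 3.40 (0.0245 to 0.762). The normexp correction gave 206 higher of 215 genes called, against 189 of 226.

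On the WS arrays 1658 genes were called, against 401 after the normexp correction, 4 with no filter and 2493 without the block of diets. The keratin count of 3 became 1 after the normexp correction, 5 after quantile normalization, 0 with no filter and 6 without the block. Leaving out a diet gave 0 to 4127 genes and 0 to 10 keratins, with 0 without LFC, HF5 or HFC and the highest counts without HF20. The difference of Krt8 ran from -10.51 to -6.32 (adjusted p 0.00751 to 0.273), that of Krt18 from -8.51 to -6.21 (0.00423 to 0.235) and that of Krt14 from -5.19 to -2.63 (0.0204 to 0.239).

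Between later and earlier arrays 1 gene was called, and 0 after the normexp correction, after quantile normalization, with no filter, with every probe on its own, by the t-test, without the week 3 and day 14 pairs, and with slide or scan day as a random block. Leaving out a time label gave 0 to 2 genes, with 2 without week 12 and 0 without day 6, day 10, day 14, week 6, week 9, week 15 or week 18. In the other comparisons every alternative gave 0 genes and 0 keratins.

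The normexp correction moved the median of all genes from -0.01 to -0.22 in HF5, from 0.08 to -0.33 in HF20, from 0.02 to -0.17 in HF75, from 0.01 to -0.17 for later against earlier arrays, from -0.51 to 0.48 for the HFC effect and from 0.04 to 0.19 on the WS arrays, and quantile normalization moved it to 0.23 for later against earlier arrays. Of 424 values of the 30 keratin results named, 3 changed sign (Krt84 in HF5 and HF20, Krt7 on the WS arrays), 35 lost a call, 14 gained a call and 0 called values were reversed. The pairs of the same scan day and the random blocks were chosen after the data were seen. Pairs on the same slide gave no value for HF20 or HF75. The cause of these changes was not tested.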

Other observations

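Of the 2 week 18 arrays that entered no comparison, the array with 21710 outlier spots had 20 keratins well above background, and the other had 26 keratins and 70.3% of probes well above background. The summed level of the milk gene list was 5.82 on LFC day 1, 5.33 on LFC day 10, 5.48 on HFC day 14 and 5.35 on HFC week 3. It was 5.31 on HF20 week 3, 6.16 on HF75 week 3 and, highest, 6.98 on the dim LFC week 3 array, with a median of 0.04 over the 38 arrays. Only 2 of the 8 milk genes were measured on the median array, and Glycam1 was the brightest on 21 arrays.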
